A study of Mus musculus with 66 samples.

Results

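Glutathione and thioredoxin antioxidant genes were described in the medial prefrontal cortex of mice given saline or ethanol. The members were all genes whose symbols begin with Gsta, Gstk, Gstm, Gsto, Gstp, Gsts, Gstt, Gstz, Gpx, Prdx, Txn or Hmox, together with Gclc, Gclm, Sod1 to Sod3 and Nqo1. Each gene stood for its brightest probe set, a group of short probes for the same transcript, provided that its mean over all arrays reached the 40th percentile of all probe sets (log2 5.10). Of 57 matching symbols 48 were kept, among 13196 genes that passed the same filter. The 9 symbols left below it were Gpx5, Gpx6, Gsta2, Gsta3, Gstm6, Gsto2, Gstt3, Gstt4 and Txndc8. Just below the limit lay Gpx5 (5.05), Txndc8 (4.96) and Gstm6 (4.94), and just above it Gstp3 (5.25), Nqo1 (5.31) and Txndc2 (5.35). Prdx1, Prdx5 and Prdx6 were not analysed here.

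There were 66 Affymetrix arrays of male mice aged 10 to 12 weeks, each made from RNA pooled over 4 to 5 animals. Mice were injected into the peritoneum with saline or with ethanol at 1.8 g/kg, and mice of either treatment were restrained for 15 minutes, placed in a light-dark chamber for 10 minutes and killed 4 hours after the injection. C57BL/6J (written C57BL6/J in the labels) and DBA/2J, the progenitor strains, had 3 saline and 3 ethanol arrays each. The other 54 arrays came from 27 BXD strains, inbred lines derived from crosses of those progenitors, with 1 saline and 1 ethanol array per strain. All groups had thus been through the same restraint and behavioural test, and no uninjected or undisturbed group was used here.

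Glutathione is a small thiol that cells make in steps led by glutamate-cysteine ligase, whose catalytic subunit is Gclc and whose modifier subunit is Gclm. Glutathione peroxidases spend it to reduce peroxides, and glutathione S-transferases join it to reactive lipids and foreign compounds. Thioredoxins form the parallel system, kept reduced by thioredoxin reductases, and they supply electrons to peroxiredoxins, which are abundant peroxide scavengers in neurons and glia. The label of the group holds for most members but not all, because the symbol pattern also takes in proteins that only carry a thioredoxin fold. Txnl4a is a spliceosome component, and Txndc5, Txndc11 and Txndc12 work in protein folding in the endoplasmic reticulum.

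Values are log2 expression levels normalised by the authors, in which a difference of 1 is a doubling. They are relative and were compared between arrays for the same probe set, never between genes. The median of an array was 5.67 to 5.77, and its standard deviation (SD) was 2.06 to 2.17. The labels say that samples were randomly assigned to processing batches, and the batch of each array was not used here. All 12 neuron markers passed the filter, and their mean level lay between 11.32 and 11.66 on every array. Markers of oligodendrocytes, the cells that make myelin, differed between the progenitors. Their mean over 14 genes was 8.28 to 8.36 on the saline C57BL/6J arrays and 7.58 to 7.88 on the saline DBA/2J arrays, and 8.07 to 8.24 against 7.75 to 7.83 after ethanol. In tissue of mixed cells, fewer cells of a type and less RNA per cell cannot be told apart.

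The first question was whether these genes changed with ethanol. No member passed a Benjamini-Hochberg adjusted p of 0.05 in limma across the 27 BXD strains, where 1 of all 13196 genes passed (0.00758%). By unadjusted p below 0.05 the count of members was also 0 of 48, against 4.93% of all genes. The paired differences, ethanol minus saline, ran from -0.07 to 0.06, with 13 members positive and 35 negative. Their median was -0.01, as was that of all genes, of which 8235 of 13196 were negative. The 95% intervals of all 48 members lay between -0.16 and 0.19, so that they allowed at most a 1.12-fold decrease and a 1.14-fold increase.

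The 3 members with the smallest p in the BXD panel did not pass. Gpx7, a glutathione peroxidase relative of the endoplasmic reticulum, had saline levels from 6.25 to 6.84 (median 6.57) and ethanol levels from 6.17 to 6.83 (median 6.46). Its difference was -0.07 (SE 0.03, adjusted p = 0.957), and 9 of 27 strains were higher after ethanol. Txn2, the mitochondrial thioredoxin, ranged from 9.48 to 9.96 after saline (median 9.68) and from 9.34 to 9.76 after ethanol (median 9.64). The difference for Txn2 was -0.05 (SE 0.03, adjusted p = 0.957), with 10 of 27 strains higher. Gstm7, a mu-class transferase, ranged from 6.36 to 7.13 after saline (median 6.74) and from 6.42 to 6.996 after ethanol (median 6.68), a difference of -0.06 (SE 0.04, adjusted p = 0.957). The saline and ethanol ranges overlapped for all 3 genes.

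**Figure D1:**
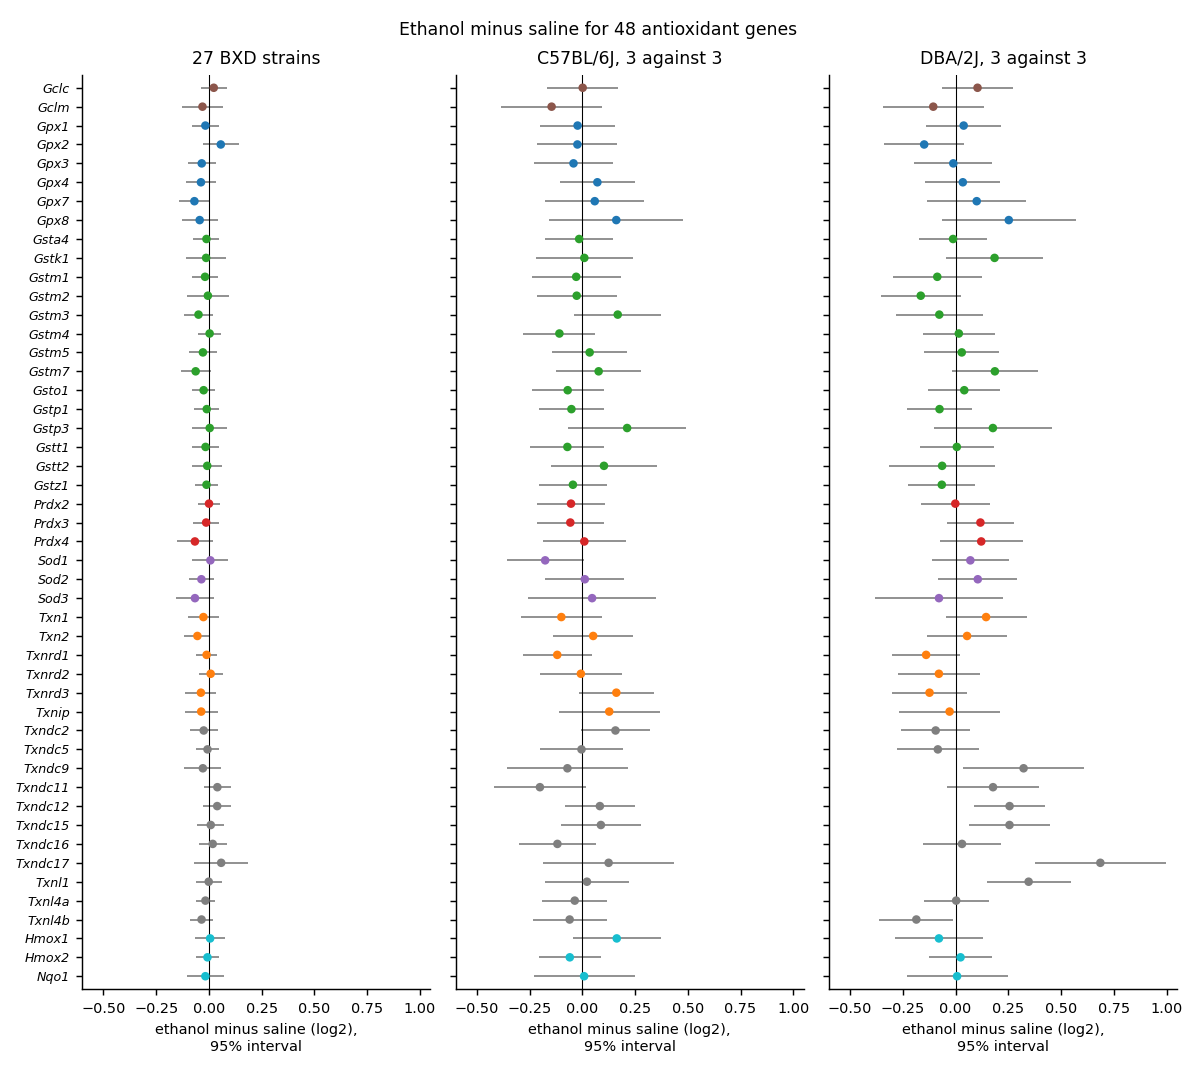
Difference between ethanol and saline arrays (log2, x axis) for each of the 48 genes (y axis, colour by role) in the 27 BXD strains, in C57BL/6J and in DBA/2J. Points are limma estimates and lines 95% intervals; in the BXD panel all points lie between -0.07 and 0.06, and in DBA/2J Txndc17 lies at 0.69.

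Genes used as readouts of the antioxidant response were among those with small differences. Hmox1, an inducible enzyme of haem breakdown, differed by 0.01 (SE 0.04) across the BXD strains, and Nqo1, a quinone reductase, by -0.02 (SE 0.04). Gclc differed by 0.02 (SE 0.03) and Gclm by -0.03 (SE 0.05). In C57BL/6J the difference of Hmox1 was 0.16 (SE 0.10, adjusted p = 0.922) and in DBA/2J it was -0.08 (SE 0.10, adjusted p = 0.773).

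In C57BL/6J no member passed for ethanol, where 0.00758% of all genes did, and 0 of 48 had an unadjusted p below 0.05, against 4.98% of all genes. The intervals were wider than in the panel, reaching from -0.42 to 0.49. The smallest p belonged to Txndc2, a thioredoxin first described in sperm, with a difference of 0.16 (SE 0.08), to Sod1, the cytosolic superoxide dismutase, with -0.18 (SE 0.09), and to Txndc11, with -0.20 (SE 0.10), all at an adjusted p of 0.922.

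In DBA/2J again no member passed, and neither did any of the 13196 genes (0.0%). By unadjusted p below 0.05 there were 6 of 48 members, against 1643 of all genes (12.5%). Those 6 all belonged to the thioredoxin-domain and thioredoxin-like proteins. Txndc17, a small cytosolic thioredoxin-like reductase, was at 7.86, 8.38 and 8.26 on the saline arrays and 8.70, 8.78 and 9.08 on the ethanol arrays, with no overlap. The difference was 0.69 (SE 0.15, adjusted p = 0.142), or 1.61-fold. Over 21 alternative settings its adjusted p ran from 0.0516 to 0.664. Here and below, the share of all genes whose arrays do not overlap is not given. A lack of overlap thus describes the arrays and adds no support to a result. Txnl1, a thioredoxin-like protein bound to the proteasome, differed by 0.35 (SE 0.09, adjusted p = 0.191), Txndc12 by 0.26 (SE 0.08, adjusted p = 0.234) and Txndc15 by 0.26 (SE 0.09, adjusted p = 0.286). Txndc9 differed by 0.32 (SE 0.14) and Txnl4b, a relative of the splicing factor, by -0.19 (SE 0.08).

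The mean of the ethanol effects in C57BL/6J and DBA/2J also gave 0 of 48 members past the threshold (0.0455% of all genes), with 5 at an unadjusted p below 0.05 (8.84% of all genes). The largest was again Txndc17 at 0.41 (SE 0.10, adjusted p = 0.357). The difference between the responses of the strains was tested as an interaction, which 0 of 48 members and 0.0% of all genes passed. For 5 members its unadjusted p was below 0.05 (8.31% of all genes), led by Txndc17, whose response was 0.56 higher in DBA/2J than in C57BL/6J (SE 0.21, adjusted p = 0.563). The responses of the progenitors were therefore not shown to differ for any member. In the BXD panel, with 27 pairs, Txndc17 differed by 0.06 (SE 0.06), and 15 of 27 strains were higher after ethanol.

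The second question was how the progenitors differed. After saline, 10 of 48 members (20.8%) passed between DBA/2J and C57BL/6J, where 10.3% of all genes passed. Of these, 6 were higher in DBA/2J (background 4.07%) and 4 lower (background 6.27%). After ethanol 4 of 48 passed (8.33%), near the background of 7.23%, with 3 higher in DBA/2J (background 4.34%) and 1 lower (background 2.89%). All 4 of them (Gsta4, Gstz1, Prdx2 and Gsto1) had passed with the same direction after saline. The median difference of the members was 0.03 after saline and 0.05 after ethanol, beside 0.02 and 0.03 over all genes. These comparisons take their means from different arrays. They share an estimate of the spread over all 12 progenitor arrays, so they are not independent. The saline comparison also shares its saline arrays with the ethanol effects above.

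**Figure D2:**
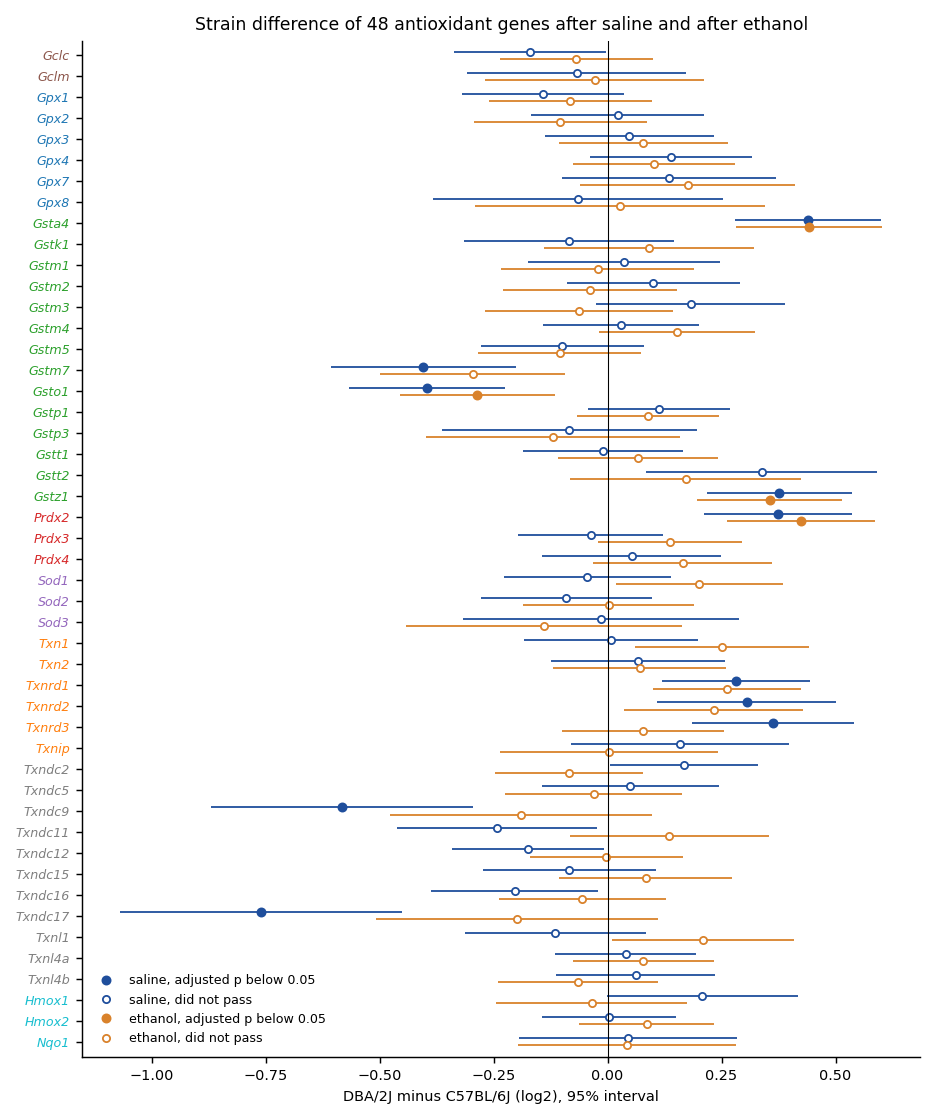
Level in DBA/2J minus level in C57BL/6J (log2, x axis) for each of the 48 genes (y axis, symbols coloured by role), after saline in blue and after ethanol in orange. Filled points passed an adjusted p of 0.05 (10 genes after saline and 4 after ethanol) and lines are 95% intervals.

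Among the 14 glutathione S-transferases, 2 were higher in DBA/2J after saline and 2 lower. Gsta4 is an alpha-class enzyme that conjugates 4-hydroxynonenal, a product of lipid peroxidation. It stood at 9.01, 9.15 and 9.11 on the saline C57BL/6J arrays and at 9.53, 9.54 and 9.52 on the saline DBA/2J arrays. After ethanol the levels were 8.998, 9.12 and 9.11 in C57BL/6J and 9.55, 9.44 and 9.56 in DBA/2J. All 6 DBA/2J arrays were above all 6 C57BL/6J arrays. The difference was 0.44 after saline (SE 0.08, adjusted p = 0.00127) and 0.44 after ethanol (SE 0.08, adjusted p = 0.00135), or 1.36-fold in each case.

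Gstz1, the zeta-class enzyme that also acts as maleylacetoacetate isomerase in tyrosine breakdown, followed the same order. Its saline levels were 7.02, 7.06 and 7.12 in C57BL/6J and 7.46, 7.39 and 7.47 in DBA/2J. On the ethanol arrays it was at 6.98, 7.09 and 7.0004 in C57BL/6J and at 7.46, 7.38 and 7.30 in DBA/2J. No C57BL/6J array reached the lowest DBA/2J array. The difference was 0.38 after saline (SE 0.08, adjusted p = 0.00387) and 0.36 after ethanol (SE 0.08, adjusted p = 0.00698). Gsta4 and Gstz1 had 1 probe set each, so no other probe set could be compared.

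Gsto1, an omega-class enzyme that reduces dehydroascorbate, went the other way. It was at 8.85, 8.93 and 8.96 on the saline C57BL/6J arrays and at 8.42, 8.46 and 8.67 on the saline DBA/2J arrays. After ethanol the C57BL/6J arrays were at 8.81, 8.89 and 8.82 and the DBA/2J arrays at 8.54, 8.55 and 8.59. The strains did not overlap under either treatment, with DBA/2J below. The difference was -0.40 after saline (SE 0.08, adjusted p = 0.0044) and -0.29 after ethanol (SE 0.08, adjusted p = 0.0419). The ethanol result was near the threshold: it was lost under 12 of 20 alternatives (adjusted p 0.0084 to 0.127 over all 20), including the omission of any of the 6 ethanol arrays, of saline C57BL/6J replicate 1 or 2, or of saline DBA/2J replicate 2. A second probe set of Gsto1 was also lower in DBA/2J, by 1.10 after saline (a difference of -1.10, SE 0.16, adjusted p = 0.000302) and with a difference of -0.63 after ethanol (SE 0.16, adjusted p = 0.0261).

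Gstm7 was at 6.90, 6.64 and 6.86 on the saline C57BL/6J arrays and at 6.39, 6.48 and 6.32 on the saline DBA/2J arrays, which did not overlap. The difference was -0.40 (SE 0.10, adjusted p = 0.0122). It did not pass without saline C57BL/6J replicate 1 (adjusted p = 0.066) or without saline DBA/2J replicate 3 (adjusted p = 0.0511), within a range of 0.00768 to 0.066 over 20 alternatives. The second probe set of Gstm7 gave 0.10 (SE 0.10, adjusted p = 0.606), so the lower level in DBA/2J rests on the brighter probe set. After ethanol the difference of Gstm7 was -0.30 (SE 0.10, adjusted p = 0.0773). The other 10 transferases did not pass under either treatment.

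Prdx2, a cytosolic peroxiredoxin, was measured by 2 probe sets that gave opposite directions. On the brighter probe set the saline levels were 10.81, 10.97 and 10.92 in C57BL/6J and 11.31, 11.30 and 11.22 in DBA/2J. After ethanol they were 10.82, 10.87 and 10.85 in C57BL/6J and 11.31, 11.18 and 11.34 in DBA/2J. By this probe set Prdx2 was higher in DBA/2J, by 0.37 after saline (SE 0.08, adjusted p = 0.00473) and by 0.43 after ethanol (SE 0.08, adjusted p = 0.00208), whereas the other probe set was lower in DBA/2J. The other probe set read 8.62, 8.72 and 8.70 on the saline C57BL/6J arrays and 6.51, 6.25 and 6.39 on the saline DBA/2J arrays. Its difference was -2.29 after saline (SE 0.10, adjusted p = 9.12e-10) and -2.29 after ethanol (SE 0.10, adjusted p = 6.93e-10), or 4.91-fold and 4.88-fold lower. Of 23 members with more than 1 detected probe set, Prdx2 was the 1 with probe sets past the threshold in opposite directions. The direction of Prdx2 between the progenitors is thus not settled by these arrays. Where the probes lie in the transcript, and whether strain sequence differences lie under them, was not analysed here.

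**Figure D3:**
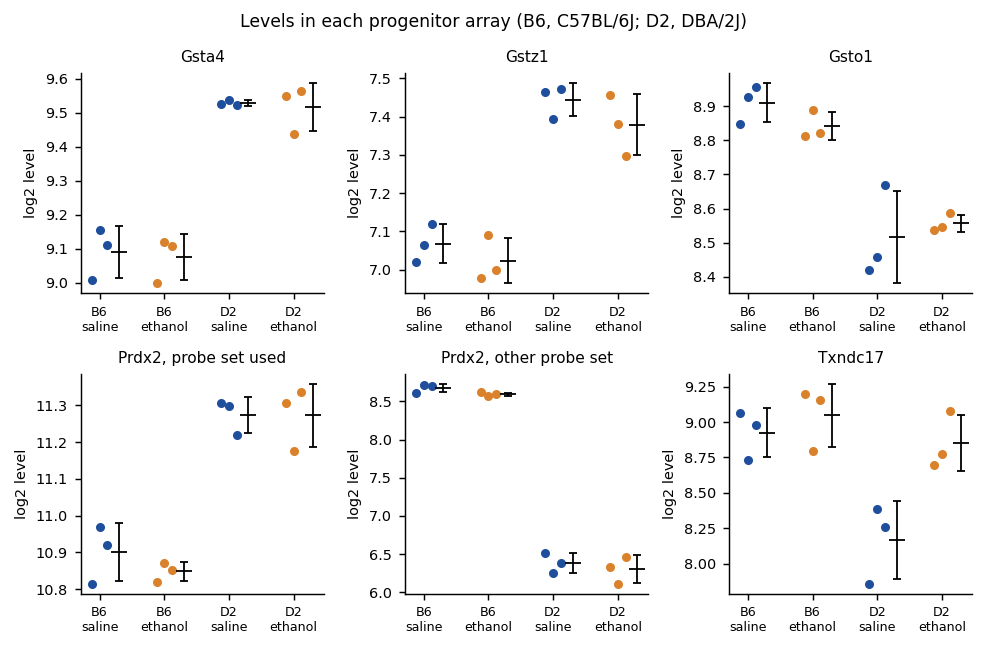
Log2 level (y axis) of Gsta4, Gstz1, Gsto1, Prdx2 on each of its probe sets, and Txndc17, on each of the 12 progenitor arrays, saline in blue and ethanol in orange. Black marks are the mean with 1 SD of 3 arrays; the Prdx2 probe sets move in opposite directions, from 10.90 to 11.27 and from 8.68 to 6.38 between the saline group means of C57BL/6J and DBA/2J.

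The thioredoxin reductases, selenoproteins that regenerate thioredoxin with NADPH, all passed after saline on their brightest probe sets and were higher in DBA/2J. Txnrd3 was at 5.78, 5.62 and 5.84 in C57BL/6J and at 6.11, 6.15 and 6.07 in DBA/2J, a difference of 0.36 (SE 0.08, adjusted p = 0.0104). Txnrd1, the cytosolic enzyme, was at 8.40, 8.51 and 8.45 in C57BL/6J and at 8.77, 8.71 and 8.72 in DBA/2J, a difference of 0.28 (SE 0.08, adjusted p = 0.0274). Txnrd2, the mitochondrial enzyme, was at 7.10, 7.32 and 7.40 in C57BL/6J and at 7.68, 7.43 and 7.62 in DBA/2J, a difference of 0.31 (SE 0.09, adjusted p = 0.0464). The saline arrays of the strains did not overlap for any of the 3 genes on these probe sets. The share of all genes without overlap is not given here, so this adds no support to the calls. Second probe sets of Txnrd1 (0.43, SE 0.11, adjusted p = 0.0285) and Txnrd3 (0.32, SE 0.09, adjusted p = 0.0427) were also higher in DBA/2J. The 3 other detected probe sets of Txnrd2 did not pass after saline (0.02, adjusted p = 0.934, 0.02, adjusted p = 0.953, and 0.19, adjusted p = 0.227), so that its call rests on the brightest probe set.

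These differences lay close to the threshold. The call for Txnrd2 was lost under 14 of 20 alternatives (adjusted p 0.0273 to 0.211), including every omission of 1 array except saline C57BL/6J replicate 3 and saline DBA/2J replicate 2. Txnrd1 was lost without saline C57BL/6J replicate 1 or 3 or any of the saline DBA/2J arrays (adjusted p 0.053 to 0.108, and 0.0165 to 0.108 over 20 alternatives). Txnrd3 was lost without saline C57BL/6J replicate 2 (adjusted p = 0.0536, and 0.00396 to 0.0536 over 19 alternatives). After ethanol none of the 3 passed on its brightest probe set: the differences were 0.26 for Txnrd1 (SE 0.08, adjusted p = 0.0509), 0.23 for Txnrd2 (SE 0.09, adjusted p = 0.163) and 0.08 for Txnrd3. Of the other probe sets, 1 of Txnrd2 passed after ethanol (0.38, SE 0.09, adjusted p = 0.0217).

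Of the 11 thioredoxin-domain and thioredoxin-like proteins, 2 were lower in saline DBA/2J. Txndc17 was at 9.07, 8.73 and 8.98 on the saline C57BL/6J arrays, against the 7.86, 8.38 and 8.26 given above for saline DBA/2J. The difference was -0.76 (SE 0.15, adjusted p = 0.00298), a 1.69-fold lower level. Txndc9, a phosducin-like protein that modulates the folding of actin and tubulin, was at 8.99, 8.93 and 8.91 in saline C57BL/6J and at 8.17, 8.67 and 8.25 in saline DBA/2J. The difference was -0.58 (SE 0.14, adjusted p = 0.011), and the groups did not overlap. After ethanol the differences were -0.20 for Txndc17 and -0.19 for Txndc9, and neither passed. The other probe set of Txndc9 also passed after saline (-0.35, SE 0.09, adjusted p = 0.0283). The other probe sets of Txndc17 did not (-0.38, adjusted p = 0.118, and -0.22, adjusted p = 0.256).

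The level of Txndc17, and that of Txndc9 after ethanol, moved with the spread of values on an array, a technical measure. Among 20 relations tested over the BXD arrays of each treatment, 3 passed after adjustment by Pearson correlation and 0 by Spearman correlation. For Txndc17 the correlation with the array SD was r = 0.55 over the 27 saline arrays (permutation p = 0.00295, adjusted p = 0.0437; rho = 0.48, permutation p = 0.0109, adjusted p = 0.0727), and it fell to r = 0.36 without the 2 arrays farthest from the median. Over the 27 ethanol arrays it was r = 0.51 (permutation p = 0.00656, adjusted p = 0.0437; rho = 0.53, permutation p = 0.00541, adjusted p = 0.0727), and r = 0.50 without the 2 farthest. For Txndc9 it was r = 0.53 over the ethanol arrays (permutation p = 0.00503, adjusted p = 0.0437; rho = 0.49, permutation p = 0.0105, adjusted p = 0.0727), and r = 0.45 without the 2 farthest. Over the saline arrays the relation did not pass for Txndc9 (r = 0.31, permutation p = 0.114, adjusted p = 0.326; rho = 0.24, permutation p = 0.225, adjusted p = 0.6), and r was 0.08 without the 2 farthest. Saline DBA/2J replicate 1, which held the lowest Txndc17 and Txndc9 levels of its group, had an array SD of 2.07, and the other saline DBA/2J arrays had 2.13 and 2.13, beside 2.14 to 2.15 in saline C57BL/6J. Without that array Txndc9 did not pass (adjusted p = 0.0555, and 0.00204 to 0.0555 over 20 alternatives), while Txndc17 passed under all 20 (adjusted p 0.000981 to 0.021). That array also enters the ethanol effect in DBA/2J. The part of array spread in the strain difference and in that ethanol effect was not tested.

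Members of the other roles did not pass between the progenitors. These were Gclc and Gclm, all 6 glutathione peroxidases, the 3 superoxide dismutases, Prdx3, Prdx4, Txn1, Txn2, Txnip, Hmox1, Hmox2 and Nqo1. Txnip is the exception on its second probe set, which was higher in saline DBA/2J by 0.33 (SE 0.09, adjusted p = 0.0378), against 0.16 (SE 0.12) on the brighter one. The saline difference was -0.17 for Gclc (SE 0.08, adjusted p = 0.191) and 0.21 for Hmox1 (SE 0.10, adjusted p = 0.202). The 95% intervals of all 48 members lay between -1.07 and 0.60 after saline and between -0.51 and 0.60 after ethanol.

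Other genes of the pathway were read from lists of 73 measured genes that are no members. After saline 13 of them passed between the progenitors, 7 higher and 6 lower in DBA/2J (17.8%), and after ethanol 7 passed, 6 higher and 1 lower (9.59%), beside 10.3% and 7.23% of all genes. Of 24 other glutathione genes, 3 were higher and 4 lower after saline. Gsr, the reductase that regenerates glutathione, was higher in DBA/2J by 0.65 after saline (SE 0.15, adjusted p = 0.00933) and by 0.61 after ethanol (SE 0.15, adjusted p = 0.0168). Mgst3, a microsomal glutathione transferase, was higher by 0.87 (SE 0.12, adjusted p = 0.000194) and 0.69 (SE 0.12, adjusted p = 0.00184). Glrx, the cytosolic glutaredoxin, was higher by 0.38 and 0.47, and Lancl1, a glutathione-binding protein, differed by -0.48 and -0.58. Of 14 genes that supply NADPH, Me3, the mitochondrial malic enzyme, was higher by 1.19 and 1.26, and Me2 by 0.43 and 0.30. Among 27 other peroxide and quinone genes, Cbr3 (0.40), Cbr1 (0.24) and Cat, catalase (-0.39), passed after saline. Of 8 regulators of the Nrf2 pathway, Nfe2l2, which encodes Nrf2 itself, was lower after saline (-0.39, SE 0.12, adjusted p = 0.0454). None of the 73 passed for ethanol.

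Cell type markers also differed between the progenitors. After saline 1 of 93 markers was higher in DBA/2J and 17 lower, 10 of them among the 14 myelin and oligodendrocyte genes, whose median difference was -0.58. After ethanol 2 were higher and 14 lower, 5 of them myelin genes (median -0.33). In all 19.4% of the markers passed after saline and 17.2% after ethanol, beside 10.3% and 7.23% of all genes. Mal (-1.36 after saline), Mobp (-0.94), Mbp (-0.71) and Cnp (-0.46) had the smallest p of that list after saline. Of 14 microglia markers 3 were lower after saline: C1qb (-0.98), C1qc (-0.91) and Tyrobp (-0.45). The list as a whole was divided, with 6 positive and 8 negative and a median of -0.06. After ethanol C1qb (-0.90) and C1qc (-0.70) were lower and P2ry12 was higher (0.33, SE 0.09, adjusted p = 0.0305). Of 16 astrocyte markers 3 were lower after each treatment. The astrocyte list had 7 positive and 9 negative differences after saline (median -0.04). After ethanol it had 5 positive and 11 negative (median -0.09). Of 12 neuron markers 0 passed after saline and 1 after ethanol. The part of these marker differences in the results for the antioxidant genes was not tested.

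The third question was which members differed among the BXD strains whatever the treatment. A moderated F test over strains passed for 9 of 48 members (18.8%), near the background of 20.4% of all genes. Of the 93 cell type markers 45 passed it (48.4%), among them all 14 myelin and oligodendrocyte genes. The part of those markers in the strain differences of the members was not tested. The intraclass correlation measures how well the saline and the ethanol array of a strain match, with 1 where strains differ and their arrays are identical and values near 0 for none. Its median was 0.15 for the members and 0.18 for all genes, and 15 members lay below 0. Of the 9 genes, 5 were glutathione S-transferases: Gsta4 (intraclass correlation 0.81, adjusted p = 2.15e-07), Gsto1 (0.73, adjusted p = 6.3e-05), Gstz1 (0.64, adjusted p = 0.00187), Gstt2 (0.42, adjusted p = 0.0313) and Gstm7 (0.41, adjusted p = 0.0361). The others were Prdx2 (0.81, adjusted p = 2.69e-06), Txnrd1 (0.70, adjusted p = 0.000569), Txnip, an arrestin-like inhibitor of thioredoxin (0.58, adjusted p = 0.00107), and Txndc16. Gstt2 did not pass after a repeated quantile normalization (adjusted p = 0.0787, and 0.0133 to 0.0787 over 7 alternatives). The second probe sets of Prdx2, Gsto1 and Txnip passed this F test too (adjusted p = 1.39e-26, 2.92e-05 and 0.00294). Those of Txnrd1 (-0.07, adjusted p = 0.716) and Gstm7 (0.37, adjusted p = 0.108) did not, so their calls rest on the brighter probe set. Gstm1 passed on a dimmer probe set only (adjusted p = 0.044). No glutathione peroxidase, superoxide dismutase or haem oxygenase passed.

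**Figure D4:**
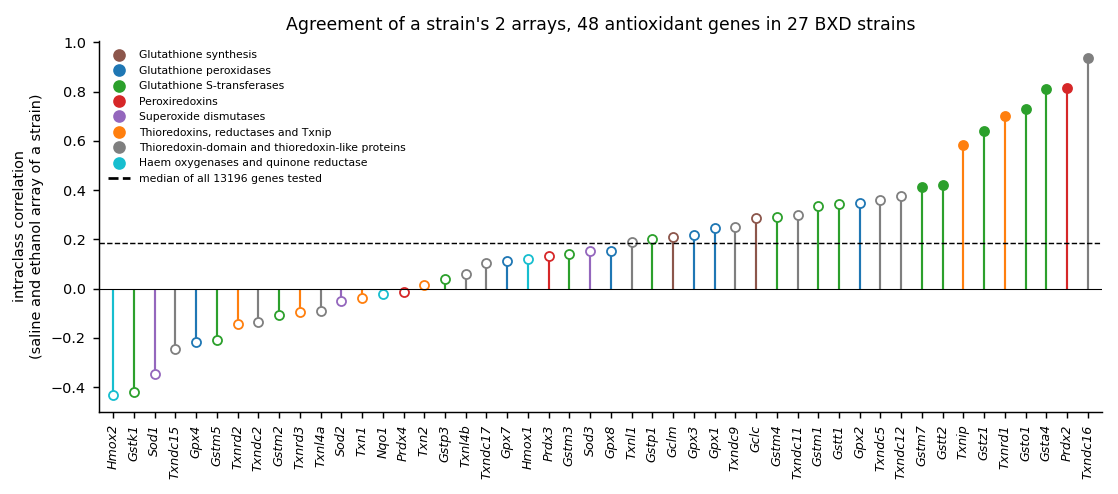
Intraclass correlation (y axis) of the saline and ethanol arrays of 27 BXD strains for each of the 48 genes (x axis, colour by role). Filled points are the 9 genes that passed the test among strains, and the dashed line is the median of all 13196 genes at 0.18; Txndc16 is highest at 0.94 and Hmox2 lowest at -0.43.

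The BXD levels of Gsta4 spanned those of the progenitors. After saline they ran from 8.83 to 9.68 (median 9.26) and after ethanol from 8.88 to 9.91 (median 9.27). By the mean of its arrays, 13 strains lay nearer to DBA/2J and 14 nearer to C57BL/6J, and 24 of 27 strains fell on the same side of the progenitor midpoint on both arrays. For Gsto1 the split was 13 nearer to DBA/2J and 14 nearer to C57BL/6J, with 25 of 27 on the same side. Gstz1 had 11 and 16, with 20 of 27 on the same side. For the brighter probe set of Prdx2 it was 15 and 12, with 25 of 27 on the same side.

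The second probe set of Prdx2 divided the panel into separate groups with no strain between. The 12 strains on the C57BL/6J side had means from 8.55 to 8.71, and the 15 on the DBA/2J side had means from 6.10 to 6.53. All 27 strains were on the same side in the saline and the ethanol array, and the intraclass correlation was 0.99. Both probe sets of Prdx2 put all 27 of 27 strains on the same progenitor side, while their levels moved in opposite directions. The brighter probe set ran from 10.76 to 10.94 in the strains on the C57BL/6J side and from 11.11 to 11.29 in those on the DBA/2J side. For comparison, the 2 probe sets of Gsto1 put 24 of 27 strains on the same side, and Gsta4 and Prdx2 shared a side in 17 of 27.

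**Figure D5:**
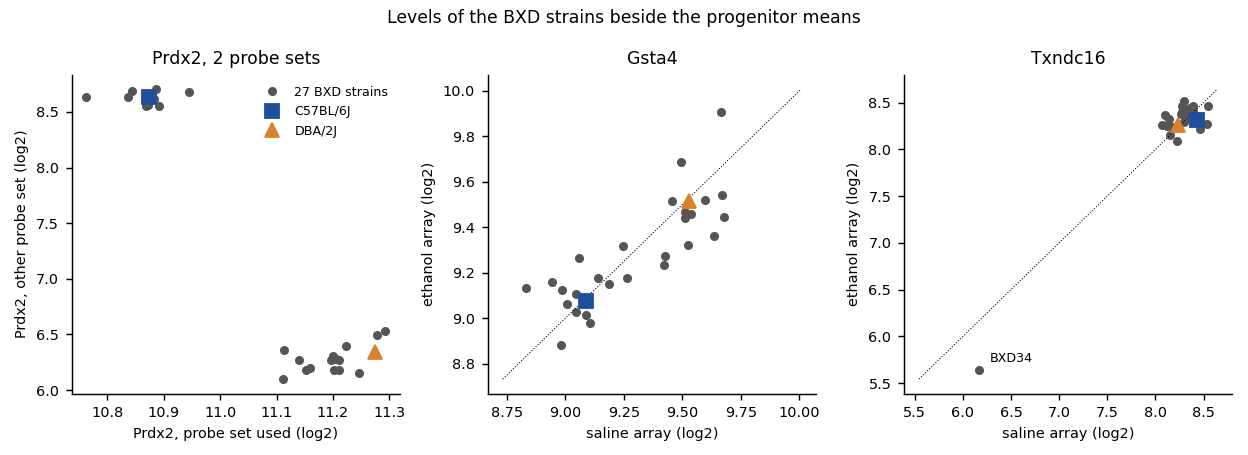
Left, mean log2 level of each of the 27 BXD strains on the used (x axis) and the other (y axis) probe set of Prdx2, with the means of C57BL/6J (square) and DBA/2J (triangle). Middle and right, saline (x axis) against ethanol (y axis) array of each strain for Gsta4 and Txndc16, with a dotted line of equality; BXD34 stands apart for Txndc16 at 6.17 and 5.64.

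Txndc16, a thioredoxin-domain protein of the secretory pathway, owed its place to 1 strain. BXD34 was at 6.17 after saline and 5.64 after ethanol, whereas the other 52 BXD arrays lay between 8.07 and 8.54 and the 12 progenitor arrays between 8.09 and 8.55. The mean of the BXD34 arrays was 2.41 below that of the other BXD arrays, 5.32-fold. Txndc16 had 1 probe set, so no other probe set could be compared. Whether a sequence difference lies under its probes was not tested. Without BXD34, an alternative chosen after seeing the data, the test among strains did not pass for Txndc16 (adjusted p = 0.174, and 1.08e-15 to 0.174 over 8 alternatives). Txndc16 was the 1 gene of 13196 with both BXD34 arrays at least 1 log2 unit below every other BXD array, and 0 genes were as far above. Over all 27 strains, 8 genes had such a drop in some strain, and Txndc16 was the 1 member among them.

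Of the genes near Txndc16 on chromosome 14, the brighter ones, Ero1a and Psmc6, did not share the drop. Ero1a was at 8.80 and 8.97 in BXD34 (8.56 to 8.99 on the other BXD arrays) and Psmc6 at 9.70 and 9.84 (9.50 to 10.01). Ptgdr, the measured neighbour of Txndc16 on one side, was at 6.19 and 6.16 (6.08 to 6.52). Gpr137c on the other side was at 5.64 and 5.70 (5.48 to 6.04). Dydc2 was also within the range of the other arrays. Mbl1 was at 4.93 and 4.79, the latter 0.11 below the lowest other array at 4.90. Ptgdr, Gpr137c, Dydc2 and Mbl1 had medians of 6.30, 5.72, 6.06 and 5.16 on the other BXD arrays. Those medians are close to or below the BXD34 levels of Txndc16, so these genes had little room to show such a drop. The array SDs of BXD34 were 2.15 after saline and 2.17 after ethanol, at the upper end of the 2.06 to 2.17 of all arrays.

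The promoter of Txndc16 and that of Prdx2 are shown because these genes had the sharpest strain patterns. Both are RefSeq sequences of the reference build GRCm38.p6, from 250 bases before to 50 bases after the transcript start. Txndc16 is at chr14:45219376-45219675 on the minus strand and Prdx2 at chr8:84969372-84969671 on the plus strand. No array value bears on which of these bases differ between the strains.
Txndc16: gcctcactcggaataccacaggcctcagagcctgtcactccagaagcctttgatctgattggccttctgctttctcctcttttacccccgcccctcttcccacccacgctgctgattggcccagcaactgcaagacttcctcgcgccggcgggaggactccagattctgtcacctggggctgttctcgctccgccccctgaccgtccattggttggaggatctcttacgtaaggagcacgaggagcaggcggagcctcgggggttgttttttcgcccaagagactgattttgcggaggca
Prdx2: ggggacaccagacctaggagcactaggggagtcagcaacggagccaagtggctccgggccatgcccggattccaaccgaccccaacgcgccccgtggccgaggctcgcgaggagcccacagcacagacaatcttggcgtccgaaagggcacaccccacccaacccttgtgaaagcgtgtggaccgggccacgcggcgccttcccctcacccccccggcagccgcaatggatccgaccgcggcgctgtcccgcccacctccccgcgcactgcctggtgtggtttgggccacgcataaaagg

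Neighbouring members were compared because transferase genes lie in clusters. There were 19 pairs within 1000000 bases of each other, 15 of them among the 6 mu-class genes on chromosome 3. Across the 27 BXD strain means 0 of 19 pairs passed an adjusted permutation p of 0.05, with r between -0.42 and 0.40. The pair with the smallest p was Gclc and Gsta4 on chromosome 9 (r = -0.42, rho = -0.43, permutation p = 0.0251, adjusted p = 0.354). On the saline arrays alone 0 of 19 passed either, and the highest value was that of Gstm1 and Gstm5 (r = 0.54, rho = 0.52, permutation p = 0.00347, adjusted p = 0.0659). Gstm genes have similar sequences, and signal shared between them by cross-hybridization was not tested.

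The promoters were searched for the core of the antioxidant response element, to which Nrf2 binds with small Maf proteins. The letters searched were TGACNNNGC and, on the other strand, GCNNNGTCA. Of 48 members 41 had a promoter in the table, and 8 of these held the motif, against 3781 of all 27025 genes in the table. Some genes have several promoters: counted per promoter, the share was 14.3% (8 of 56) for the members and 12.4% (4071 of 32851) for all genes. The 8 were Gclm, Gstm5, Gstm7, Sod1, Txndc2, Txndc5, Txndc11 and Txnrd1. The promoters of 2 members are shown with the motif in capitals. Gclm is a textbook target of Nrf2, and Txnrd1 differed among strains on its brightest probe set. Gclm is at chr3:122245307-122245606 and Txnrd1 at chr10:82858956-82859255, which is 1 of its 3 promoters in the table, and both are on the plus strand.
Gclm: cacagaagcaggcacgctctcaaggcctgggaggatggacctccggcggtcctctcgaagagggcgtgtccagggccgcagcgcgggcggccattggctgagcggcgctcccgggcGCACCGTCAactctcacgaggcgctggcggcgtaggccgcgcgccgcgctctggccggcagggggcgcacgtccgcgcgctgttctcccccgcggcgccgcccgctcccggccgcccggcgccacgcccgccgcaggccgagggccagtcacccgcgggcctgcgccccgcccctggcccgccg
Txnrd1: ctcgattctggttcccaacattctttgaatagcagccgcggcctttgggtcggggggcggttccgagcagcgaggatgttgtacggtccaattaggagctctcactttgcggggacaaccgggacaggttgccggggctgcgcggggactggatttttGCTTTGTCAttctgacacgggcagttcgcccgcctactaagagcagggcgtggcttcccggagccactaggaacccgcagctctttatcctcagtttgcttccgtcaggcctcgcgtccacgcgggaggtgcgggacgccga
Of these 2 genes, Gclm did not pass in any comparison. On its brightest probe set Txnrd1 passed between the progenitors after saline and among the BXD strains. A match to these letters describes the sequence and does not show binding.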

How the data were processed

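Deposited values were on a log2 scale. The submitters' processing notes name affy and RMA as the authors' tools, and the sources used here give no version of either. RMA removes background, gives all arrays like distributions and combines the probes of a set, so that levels are relative. The number of arrays limits the precision. The table held 45037 probe sets, of which the platform annotation gave 34945 a single symbol. For 34741 of these probe sets the Entrez identifier was found in a RefSeq table, and the symbol was taken from there. Probe sets below the 40th percentile were left out, and the brightest one per symbol was kept. Probe sets with several symbols, 6 of them matching the rule, were not used.

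Tests were two-sided and fitted over all 13196 genes with limma 3.58.1 (lmFit and eBayes) in R 4.3.3, with Benjamini-Hochberg adjustment at 0.05. The BXD ethanol effect used 54 arrays with strain as a block, since the labels give each strain 1 array per treatment: 45 of 54 arrays correlated best with the other array of their own strain, and the median correlation was 0.44 within and -0.02 between strains. The progenitor comparisons shared a fit of 12 arrays and 4 group means with 8 residual degrees of freedom. The labels do not say that pools of a group came from separate cohorts, so p-values measure the spread between these pools. Second probe sets were tested on the same arrays, with p adjusted over all detected probe sets. Correlations used 100000 permutations in Python 3.11.15. The fits were tested on simulated data with 200 changed genes.

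Every member may be named. Array values were given for the 10 members with the smallest p past the threshold, or else the 3 smallest p; of other lists up to 4 genes past the threshold per list and comparison were named. The members and lists were chosen with earlier results of these data known. Alternatives covered the filter, the probe set, scaling, the variance model, the fit over all 66 arrays, the replicate block and the omission of each progenitor array; the omission of BXD34 and the second probe sets against the midpoint were added after seeing the data.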

Additional observations from a re-analysis of the deposited data

How the results depend on the processing

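All 150 recomputed counts and summaries for the members stayed within 1.5 times the reported value. On the probe set used for each gene, no named difference changed direction. Other probe sets could differ in direction, as given above for Prdx2 and Gstm7. Counts over all genes moved further, as given below. For named genes, 597 recomputed results kept their side of the threshold and 37 lost the call, as given beside the genes. With each of the 12 progenitor arrays left out in turn, the count of members past the threshold was 7 to 10 after saline and 3 to 4 after ethanol between the strains, and 0 for each ethanol effect. The replicate numbers of the progenitors did not pair the arrays: the correlations of same-numbered arrays ran from -0.23 to 0.26, and 5 of 12 arrays correlated best with their own number. With the replicate block, 9 members passed between the strains after saline and 3 after ethanol, with the calls for Txnrd2 (adjusted p = 0.0616) and, after ethanol, Gsto1 (adjusted p = 0.0571) lost, and 0 for each ethanol effect. With no replicate block the BXD ethanol effect also gave 0 members. Over all genes, 1365 passed between the strains after saline and 848 without saline C57BL/6J replicate 1, and 954 passed after ethanol. With each detected probe set on its own, 2124 probe sets passed after saline and 1514 after ethanol. Those counts are of probe sets, of which more were tested than genes. For ethanol in DBA/2J, 0 genes passed in 12 arrays and 30 in the fit over all 66 arrays, with 0 members in either. After ethanol 60.1% of the genes past the threshold between the strains were higher in DBA/2J, 42.1% with each array centred on its median and 48.2% after a repeated quantile normalization. All 4 members kept their direction and call under both, and Gstm7 was added under the former. Causes were not tested. Without detection calls, differences of members near the filter, such as Hmox1, Nqo1, Txnrd3 and Gstt2, may understate the change.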
